A study of Drosophila melanogaster with 18 samples.

Results

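Genes of secretion, basement membrane and matrix cleavage were examined in the variant lists of 3 mutant Drosophila melanogaster lines from a screen for regulators of muscle morphogenesis. The set consisted of Tango1, Gdi, Col4a1, Np and Mmp2. They were selected by gene symbol, with the consequence and quality score of their variants already known, so those values are given as a description and support no test. The 5 genes held 6 distinct variants of 167 listed in all, in 5 of 129 genes, once repeated entries and equivalent insertions were counted once.

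The lines were sj266 (2 samples), sj440 (3 samples) and sj461 (3 samples), each numbered by the labels as 2 replicates, with the extra sample of sj440 and of sj461 carrying a suffix to a replicate number. Polyadenylated RNA came from whole embryos at stage 12, after a 3 h egg lay at 25 °C and 7 h of ageing. Embryos homozygous for the mutant chromosome had been picked by hand against a green fluorescent balancer, a marked chromosome that keeps a lethal mutation in stock. No label names the mutagen, the parental stock or the phenotype of a line, and lists of the 3 further lines were not used here. Each line has 1 list over its samples, which gives neither expression levels nor read depth, allele shares or values per replicate. No value below therefore has a replicate error, the depth behind each call is unknown, and the labelled tissue could not be checked against markers. Whether a listed base differs in the DNA or only in the RNA was not tested.

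Type IV collagen is the network-forming collagen of basement membranes, the sheets of matrix that surround muscles, gut, nerve cord and epidermis. Its trimers are assembled in the endoplasmic reticulum and are too large for ordinary transport vesicles, so their export needs a dedicated receptor and scaffold at the exit sites, and each membrane step towards the surface needs Rab GTPases that are recycled. Outside the cell, secreted and membrane-bound proteases cut matrix proteins and so remodel the sheet or release cells from it. Following that route, Tango1 and Gdi stand at the export steps, Col4a1 is the cargo, and Np and Mmp2 are proteases of the extracellular space.

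The 6 variants were spread evenly over the lines, with 2 in each. The list of sj266 held Tango1 and Col4a1, that of sj440 held Gdi and Np, and that of sj461 held Np and Mmp2. The variants comprised 3 missense changes, 2 in-frame insertions and 1 splice-acceptor change. Of all 167 listed variants, 95 were missense changes, 47 splice-site changes and 22 insertions or deletions. With 6 variants, the make-up of the set does not set it apart from the lists. Np was the only gene of the set listed in more than 1 line, against 14 of all 129 listed genes. None of the 6 variants was identical between lines, against 6 variants of the whole lists that were. Without those shared variants, the other variants set against Tango1 in sj266 fell from 36 to 30. For Gdi in sj440 they fell from 65 to 59, and for Mmp2 in sj461 they stayed at 63. The sharing was thus between sj266 and sj440, and the 2 variants of the set in sj461 came from a list without shared variants. With so few shared variants in the lists, finding none in the set does not set it apart. At each of the 6 positions the RefSeq gene table (Release 6 plus ISO1 MT assembly, the release behind BDGP6) holds 1 gene, so none of the calls lies where annotated genes overlap.

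**Figure D1:**
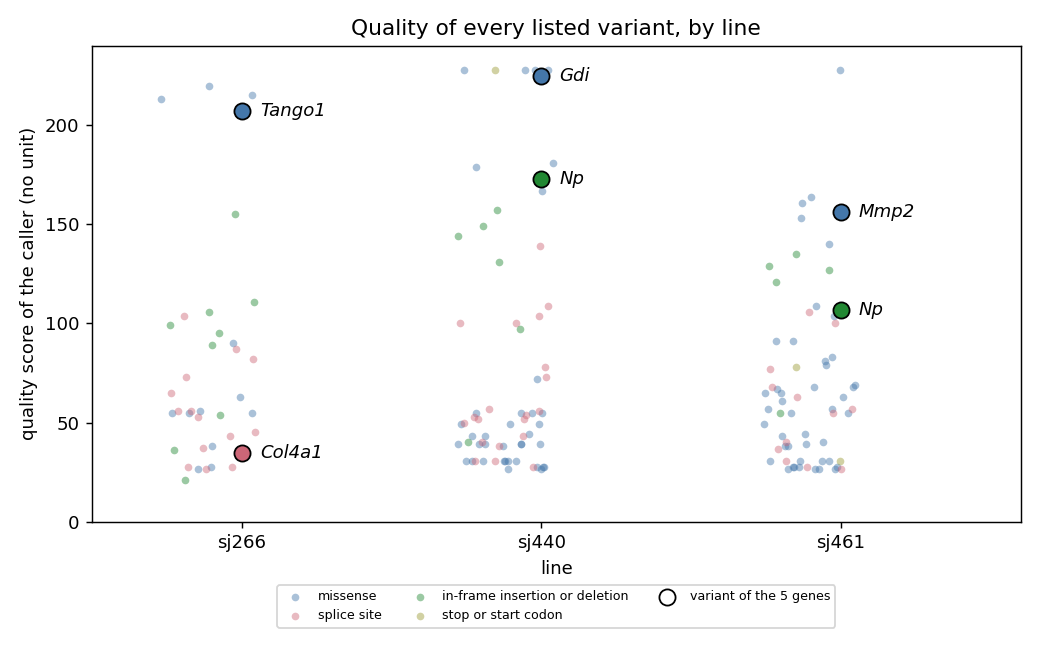
Quality score (y axis, no unit) of every listed variant in the lines sj266, sj440 and sj461 (x axis), coloured by consequence, with the variants of the 5 genes as large outlined points. Tango1, Gdi, both Np insertions and Mmp2 have scores of 107 or more, and Col4a1 lies at 34.7.

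Tango1 encodes the transmembrane protein of endoplasmic reticulum exit sites that binds bulky cargo such as collagen and recruits membrane for its carriers. In sj266 it carried D770N (residues are counted from 1 at the start of the annotated protein), which puts asparagine in place of aspartate. The change lies on 2L at position 6652058 of BDGP6, in a gene that spans 6649388 to 6654574 on the forward strand (FBgn0286898). It is G2308A in the coding sequence of transcript FBtr0079295 and alters the first base of a Gat codon, which becomes Aat; the changed base is in capitals. The site lies 2670 bases from the 5′ end of the gene, at 51.5% of its length. The substitution removes a negative charge and leaves the Kyte-Doolittle hydropathy unchanged, with -3.5 for both residues. Its quality score was 207, behind 3 of the 36 other variants of the line, and the other 33 scored lower. The next variants in the list were Spt5 above it, at 213, and the insertion in CG10543 below it, at 155. Among the 13 missense changes of sj266 it also ranked 4, since the 3 variants above it were all missense changes. The share below it was smaller there, with 9 of the 12 others lower.

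Gdi encodes the GDP dissociation inhibitor, which extracts inactive Rab GTPases from membranes and keeps them soluble until their next round of transport. In sj440 it carried R35Q, glutamine in place of arginine. The change is C9494512T on 2L, on the forward strand of the genome, in a gene of the reverse strand that spans 9491176 to 9494876 (FBgn0004868). In the coding sequence of FBtr0079862 it is G104A, at the second base of a cGa codon, which becomes cAa. The base lies 364 bases from the 5′ end of the gene, of 3701 in all, and thus near the start of the protein. It removes a positive charge and raises the hydropathy by 1 unit, to -3.5 in glutamine from -4.5 in arginine. Its quality of 225 was the highest of the set. In its list of 66 variants it ranked 6, behind 5 variants that shared the top score of 228, in NimC4, ds, bowl, Lpin and CG30015, and a gap separated it from Sox14, next below at 181.

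Col4a1 encodes the alpha 1 chain of type IV collagen, which forms trimers with the alpha 2 chain encoded by vkg. It was the cargo of the route and the only one of the 5 genes with a variant annotated as high impact. That annotation was common, with 50 of 167 variants over the 3 lists and 15 of 37 in sj266, so it does not set Col4a1 apart. In sj266, A5032498G changed a splice acceptor of transcript FBtr0079001 on 2L (FBgn0000299, forward strand, 5029609 to 5037279), 2889 bases from the 5′ end of the gene, at 37.7% of its length. Splice acceptors normally end in AG, and the reference base A is the first of that pair. Of 22 acceptor variants in the 3 lists, 8 changed the A and 14 the G, and the Col4a1 variant was the only A-to-G change among the 22, or among all 47 splice-site variants. The quality was 34.7, the lowest of the set. It ranked 31 of 37 in the line, with 6 of the 36 others lower, between pdm2 at 36.3 and a group of 3 variants at 27.4 (Nipped-A, Topors and ord). Within the 15 splice-site variants of sj266, whose median was 53, it ranked 12. The changed base is intronic and absent from spliced RNA; what kind of reads gave the call is unknown, and splicing of the transcript was not measured.

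The variants of Tango1 and Col4a1 belong to the same line and the same arm, so sj266 had listed changes both in a collagen chain and in the export receptor for collagen. They lie 1.62 Mb apart, with no other listed variant of sj266 between them. The nearest variant on the other side of Col4a1 was the missense change in bark, 1.23 Mb away, with a quality of 220. Beyond Tango1 the nearest was in Piezo, 1.52 Mb away, with a quality of 21.2. These distances are themselves among the 13 gaps between listed variants of sj266 on 2L. The median of those gaps, 1234 kb, is the distance from bark to Col4a1, so it is no outside measure of spacing. The quality scores of the pair differed widely, at 207 for Tango1 and 34.7 for Col4a1.

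**Figure D2:**
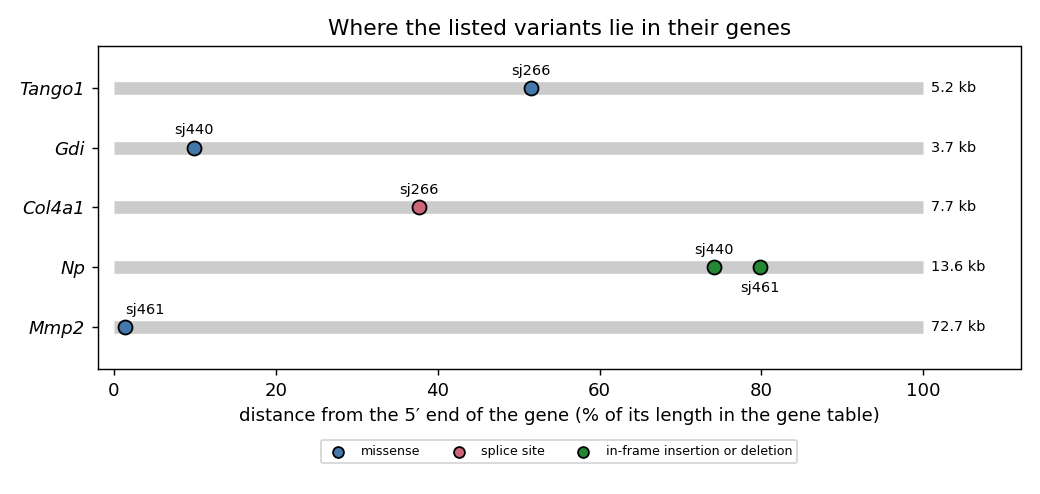
Position of each listed variant along its gene (x axis, distance from the 5′ end as a percentage of the gene's length in the RefSeq gene table), with the length of each gene in kb at the right and the line beside each point. The variants of Mmp2 and Gdi lie within the first 10% of the gene, and both Np insertions lie between 74.1% and 79.8%.

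Np (Notopleural) encodes a membrane-bound serine protease of the trypsin type, related to the matriptase of vertebrates, that cuts zona pellucida domain proteins of the apical extracellular matrix. It was listed with an in-frame insertion of 3 bases in both sj440 and sj461, on transcript FBtr0112560 (FBgn0265011, reverse strand, 2R, 8992945 to 9006587). The insertions were not the same. In sj440 a threonine was added between residues 537 and 538 (position 8996477, quality 173). In sj461 a serine was added to a run of 5 serines at residues 734 to 738, making it 6 long. The sj461 insertion was listed at positions 8995689, 8995698 and 8995701, with qualities of 77, 107 and 102. Applied to the same reference bases, the 3 forms gave 1 sequence, so they describe 1 event, whose highest score, 107, is used here. The form of quality 77 was annotated as protein altering and the others as in-frame insertions, although the product is the same.

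The Np sites are 587 coding bases apart but 771 bases apart in the genome, a surplus of 184 bases, which places them in different exons of the annotated transcript. The caller is not named, so it is unknown whether insertions and single-base changes are scored on the same scale. The median quality over the 3 lists was 109 for the 18 insertions, against 54 for the 47 splice-site variants, and a rank of an Np insertion among all variants of its line is open to that difference. The insertion of sj440 ranked 9 of 66 in its line and had the highest score of the 7 insertions and deletions there. It lay between sha, at 179, and Su(z)2, at 167. The insertion of sj461 ranked 12 of 64, with 52 of the 63 others lower, between CG16898 at 109 and Clamp at 106. Within its own class it stood low, since 4 of the 5 other insertions and deletions of sj461 scored higher. Only 7 of the 18 insertions of the 3 lists added 3 bases, and the pair in Np belonged to them. Neither insertion shifts the reading frame, and protease activity was not measured.

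Mmp2 encodes a matrix metalloproteinase held at the cell surface by a lipid anchor, which degrades basement membrane components. In sj461 it carried A15T, threonine in place of alanine, at C9682890T on 2R (FBgn0033438, reverse strand, 9611139 to 9683858). In transcript FBtr0088501 the change is G43A, at the first base of the codon. Among the 5 genes Mmp2 was the longest, at 72720 bases, and its variant lay 968 bases from the 5′ end, or 1.33% of its length. As a share of gene length this was the nearest to the 5′ end of the 6 variants, whereas in bases the Gdi variant was nearer, at 364. The cDNA position, 969 when counted from 1, equals that distance, so no intron of the annotated transcript lies ahead of the site if the transcript begins at the 5′ end of the gene in the table. The coding sequence starts after 926 bases of 5′ untranslated region, and the fifteenth residue belongs to the extreme amino terminus, where secreted and cell-surface proteins carry their signal for entry into the endoplasmic reticulum. The extent of that signal in Mmp2 was not determined here. The substitution left the charge unchanged and lowered hydropathy by the widest margin of the 3 missense changes: threonine scores -0.7 and alanine 1.8, a difference of -2.5. The quality was 156, rank 4 of 64 in the line, with 60 of the 63 others lower. Among the 44 missense changes of sj461 it also ranked 4, between eEF2 at 161 and CG30460 at 153.

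The Np insertion and the Mmp2 change of sj461 lie 687 kb apart on 2R with no other listed variant of the line between them. The missense change in ptc, the Hedgehog receptor gene and the top score of the line at 228, lies 335 kb from the Np insertion on the other side and 1.02 Mb from Mmp2. These 3 variants span 1.02 Mb, a stretch set by the choice of Np and Mmp2 and by the neighbour of Np. It is described here and not shown to be a cluster. In the whole list of sj461, 11 variants scored above the 107 of Np, with ptc and Mmp2 among them. The nearest variants outside that stretch were those in CG1850, 1.74 Mb from Np with a quality of 26.4, and tou, 1905 kb from Mmp2 with a quality of 68. The median gap between listed variants on 2R in this line was 310 kb over 30 gaps. The distances of 335 kb and 687 kb are among those gaps, and both exceed the median. In sj440 the variants of Gdi and Np lie on different arms. The nearest listed variant to Gdi in that line was CG9525, 534 kb away with a quality of 30.4, and the nearest to Np was the splice-donor change in Lpin, 855 kb away with a quality of 104. Which variants of a line are inherited together was not tested.

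**Figure D3:**
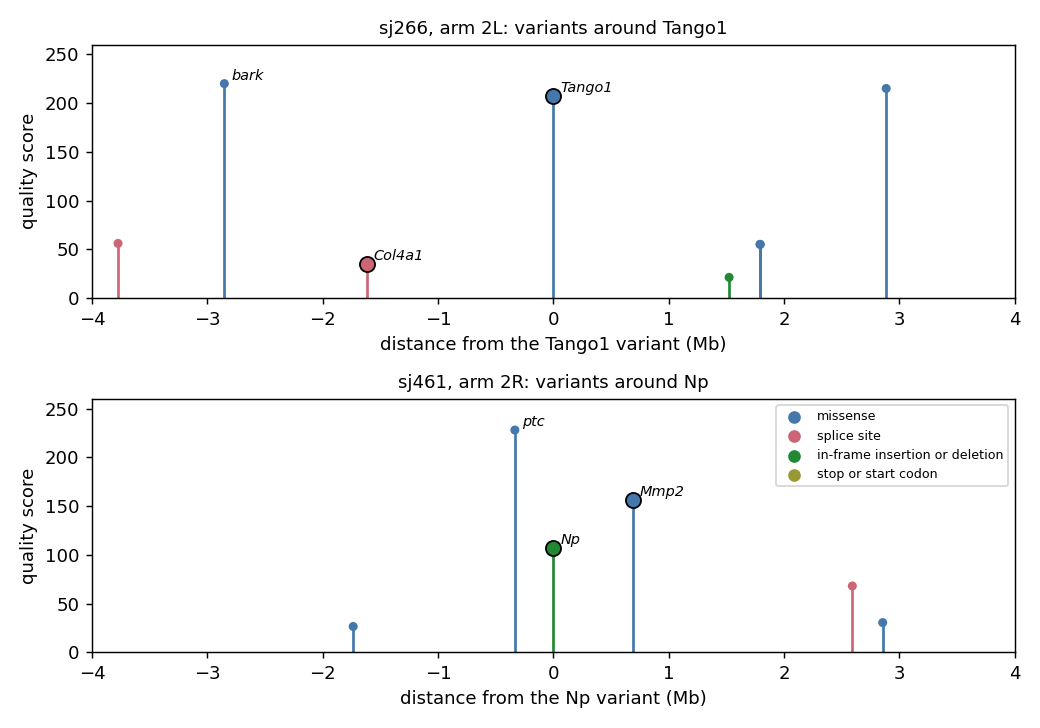
Quality score (y axis, no unit) of the listed variants within 4 Mb of Tango1 in sj266 (upper panel) and of Np in sj461 (lower panel), against distance in Mb (x axis). Outlined points belong to the 5 genes. Tango1 and Col4a1 are 1.62 Mb apart, and ptc, Np and Mmp2 lie along 1.02 Mb.

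The missense changes of Tango1, Gdi and Mmp2 had features in common. The genes were chosen with consequence and quality known, so these features are not shown to be independent of the choice. All 3 changed a G:C pair to an A:T pair, and all 3 read as G to A on the strand with the sequence of the RNA. Among the other 92 missense changes of the lists, 27 (29.3%) were of G:C to A:T type, of which 19 read as G to A and 8 as C to T. By line, G to A accounted for 5 of 12 other missense changes of the list of sj266, for 4 of 37 of sj440, and for 10 of 43 of sj461. The 3 missense changes that scored above Tango1 in sj266, in bark, Oatp30B and Spt5, also read as G to A. Of those above Gdi in sj440, ds was G to A, bowl C to T, and Lpin and CG30015 A to T. Of those above Mmp2 in sj461, CG7102 was G to A, and eEF2 and ptc T to A. The 3 changes had qualities of 156 to 225, whereas the other 92 were taken at any quality, so the shares are not matched for quality. With 3 missense changes in the set, these are counts and not a test.

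The residue changes were also scored by a general measure. The BLOSUM62 score, which is higher for exchanges that are frequent between related proteins, was 1 for D770N and for R35Q and 0 for A15T. None of the 3 was negative, against 32 (34.8%) of the other 92, whose scores ran from -3 to 3 with a median of 0. Of those 92, 22 scored 0 and 38 scored above 0. Scores of 0 or above were thus the more common there too, and they do not set the 3 changes apart. Charge changed in Tango1 and Gdi, in 2 of 3, against 25 of the other 92. The same exchanges occurred elsewhere in the lists. Aspartate to asparagine was found in 4 other missense changes, in CG31897, CG43402, CG1850 and CG33225, with qualities of 26.4 to 81. Alanine to threonine was found in ds, Psc and CG33225, and arginine to glutamine in Sln. These scores take no account of the place in the protein, and no effect on any protein was measured.

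**Figure D4:**
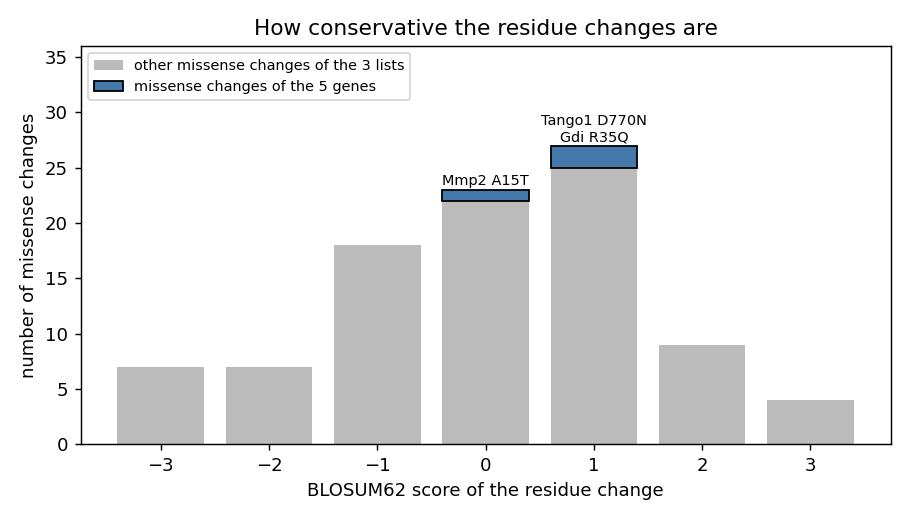
Number of missense changes (y axis) by BLOSUM62 score of the residue change (x axis), for the 92 other missense changes of the 3 lists in grey and for D770N of Tango1, R35Q of Gdi and A15T of Mmp2 in blue. The 3 scores lie at 0 and 1, and 32 of the grey changes lie below 0.

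Other genes along the same route were looked up in 7 lists of 95 genes, all matched in the gene table, of which 38 lie on chromosome 2, where all listed variants lie. Of the protein-coding genes of chromosome 2, 2.34% (129 of 5508) had a listed variant. The 5 selected genes had one by choice, and among the other 33 genes of chromosome 2 the count was 0, where that share of 33 genes is 0.773 genes. A count of 0 is therefore near the background and does not set the route apart.

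At the exit sites of the endoplasmic reticulum, 0 of 6 other genes were listed, which were the coat genes Sec24AB, Sec24CD and Sec31, Sec12, the SNARE gene Syx5 and the golgin GM130. In the Rab cycle 0 of 10 were listed, among them Rep, the Rab escort protein related to Gdi, and Rab5 and Rab6. The gene vkg, the partner chain of Col4a1 and its neighbour on 2L, was not listed, nor were LanB1, wb and Ndg of the laminin and nidogen part of the basement membrane. Of proteases, Mmp1, stl and kuz were not listed. Of apical matrix proteins with a zona pellucida domain, the class that Np cuts, dpy, pio and qsm were not listed. Of matrix receptors 0 of 7 were listed, among them the integrin gene scb and the dystroglycan gene Dg. A gene can be listed only where its RNA was present and covered by reads, so a gene missing from the lists was not shown to be unaltered.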

How the data were processed

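Variants called from RNA of stage 12 embryos were read from 1 deposited list per line. The authors deposited a quality score per variant with its position, alleles and annotated consequence, gene and transcript. The submitters' processing notes name STAR 2.5.4b, cutadapt 2.4 and BDGP6 without saying what each did; the steps of variant calling, filtering and annotation were not given in the sources used here. Lists were assigned to lines by worksheet name.

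Repeated entries were merged (202 listed, 173 distinct), and insertions or deletions of 1 gene, line and net length within 30 bp were counted once at their highest score (167). Codons of the 3 missense changes were checked to translate to the listed residues, and the merging was tested on simulated data. Gene spans came from the RefSeq gene table of Release 6 plus ISO1 MT. The members and gene lists were chosen with earlier results of these data known, so only counts, ranks and shares are given and no test was run. A planned look at protein context was not made, since protein sequences were not used here. Named genes were the 5 members, other list genes with a variant, and the neighbours of each member in quality; genes near a member on the chromosome, with the same residue change or without a variant were named after their values were seen. Alternatives covered merging, quality minima of 30, 50 and 100, the variants set against each member, and the PAM250 matrix. Python 3.11.15, pandas 2.3.3, scipy 1.17.1 and Biopython 1.88 were used.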

Additional observations from a re-analysis of the deposited data

How the results depend on the processing

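Of 35 alternatives over 9 results, 29 left the value within 1.5 times a count or within the exact (Clopper-Pearson) 95% interval of a share, and 6 did not. The interval served only as a yardstick and measures no error of a share. Most alternatives are parts of the same list, and its variants are not random draws. The 6 variants of the 5 genes became 11 when every listed entry was counted, 8 with equivalent insertions kept apart, and 5 without splice-site variants or at a quality of 50 or 100, since Col4a1 then dropped out. The share of other variants of the line with a lower quality moved most for Np. In sj461 it was 82.5% of the whole list but 20% within insertions and deletions and 25% within insertions alone. In sj440 it was 87.7% of the list and 100% within either class. For Tango1 it was 91.7% of the list and 75% within missense changes. These comparisons rest on 4 to 12 other variants. The remaining shares, for Gdi, Mmp2 and Col4a1, stayed within their intervals under the 4 alternatives tried for each. Several of these alternatives kept most of the same list, so the shares had little room to move. For Mmp2, leaving out variants found in more than 1 line removed none, with 60 of 63 lower both times. Leaving out a replicate was not run, because the lists give no value per replicate, and read depth, which limits every call, is unknown. No paired analysis was possible because no result comes from a test.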
